A study of Mus musculus with 24 samples.

Results

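The 10 chemokine genes of the mouse liver described here were taken by symbol through GENCODE M21 from 22392 genes in the normalised count table. They are Cxcl1, Cxcl2, Ccl2, Ccl6, Cxcl9, Cxcl10, Ccl5, Cxcl16, Cxcl12 and Cxcl13. All 10 were found, and all 10 were among the 14040 genes tested. Livers came from 24 CD2F1 mice in 3 groups of 8. CT mice were sham-injected and bore no tumour. C26 mice carried the transplanted C26 colon carcinoma, which causes wasting (cachexia), and were otherwise untreated. In C26-CHO mice the C26 tumour was combined with cholestyramine, a bile acid-binding resin, mixed into the feed at 2% (w/w). Feeding began on day 1 after the injection of tumour cells and ran to day 10. The labels used here give no age or sex, and a tumour-free group on cholestyramine was not analysed here.

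Chemokines are small secreted proteins that draw leukocytes along a gradient through G-protein-coupled receptors. Cxcl1 and Cxcl2 act on the receptor Cxcr2 and recruit neutrophils. Ccl2 recruits monocytes through Ccr2, and Ccl6 is a rodent chemokine that acts through Ccr1. Cxcl9 and Cxcl10 are induced by interferon gamma and attract activated T cells and NK cells through Cxcr3, Ccl5 attracts T cells and monocytes, and Cxcl16 is a membrane-bound ligand of Cxcr6 on T and NKT cells. Cxcl12, the ligand of Cxcr4, is made constitutively by stromal and endothelial cells, and Cxcl13 attracts B cells through Cxcr5. In the liver, hepatocytes, Kupffer cells, endothelial cells and stellate cells can all make chemokines. The genes were grouped by the main cell attracted into 2 neutrophil, 2 monocyte and 6 lymphocyte attractants.

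On the build GRCm38, 5 of the genes lie on chromosome 5: Cxcl1 at chr5:90891241-90893115 and Cxcl2 at chr5:90903871-90905938, both on the plus strand, Cxcl9 at chr5:92321347-92328079 and Cxcl10 at chr5:92346638-92348889, both on the minus strand, and Cxcl13 at chr5:95956951-95961068 on the plus strand. Cxcl12 lies at chr6:117168535-117181367 on the plus strand. On chromosome 11 are Cxcl16 at chr11:70453983-70459984, Ccl5 at chr11:83525778-83530518 and Ccl6 at chr11:83587882-83593087, all on the minus strand, and Ccl2 at chr11:82035571-82037453 on the plus strand. Exons of Cxcl10 share 133 bases with Art3 and exons of Cxcl16 share 552 bases with Zmynd15, each on the opposite strand. The use of strand in counting is not given in the sources used here, so the values of Cxcl10 and Cxcl16 are uncertain to that extent.

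The RefSeq promoter table (build GRCm38.p6) held 7 of the 10 genes, and Cxcl16, Ccl2 and Ccl5 had no entry. The 250 bases before the RefSeq start are shown for 4 genes, because the pair Cxcl1 and Cxcl2 and the pair Cxcl9 and Cxcl10 moved in opposite directions with the tumour. Sequences are written 5′ to 3′ on the strand of the gene. Capitals mark matches, on either strand, to the NF-kB consensus or to the interferon regulatory factor core GAAANNGAA. Windows are chr5:90890995-90891244 (plus) for Cxcl1, chr5:90903649-90903898 (plus) for Cxcl2, chr5:92328080-92328329 (minus) for Cxcl9 and chr5:92348890-92349139 (minus) for Cxcl10.
Cxcl1: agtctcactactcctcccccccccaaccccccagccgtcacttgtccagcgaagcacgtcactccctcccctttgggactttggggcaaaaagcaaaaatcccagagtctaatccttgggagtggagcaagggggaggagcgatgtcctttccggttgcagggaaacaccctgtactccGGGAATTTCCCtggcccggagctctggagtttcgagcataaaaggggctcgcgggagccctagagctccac
Cxcl2: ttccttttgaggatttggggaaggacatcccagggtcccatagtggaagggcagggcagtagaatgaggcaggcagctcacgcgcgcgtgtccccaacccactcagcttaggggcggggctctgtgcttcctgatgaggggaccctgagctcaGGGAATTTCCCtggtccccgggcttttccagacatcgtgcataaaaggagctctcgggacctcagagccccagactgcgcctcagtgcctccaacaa
Cxcl9: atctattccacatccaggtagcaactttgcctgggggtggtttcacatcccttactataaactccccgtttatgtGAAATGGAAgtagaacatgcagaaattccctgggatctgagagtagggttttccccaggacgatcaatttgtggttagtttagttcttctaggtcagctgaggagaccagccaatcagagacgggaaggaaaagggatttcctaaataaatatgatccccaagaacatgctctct
Cxcl10: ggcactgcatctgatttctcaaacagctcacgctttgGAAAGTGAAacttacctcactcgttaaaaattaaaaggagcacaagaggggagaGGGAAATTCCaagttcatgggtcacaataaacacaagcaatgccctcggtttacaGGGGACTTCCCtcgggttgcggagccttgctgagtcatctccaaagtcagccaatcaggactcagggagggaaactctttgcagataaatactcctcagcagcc
The capitals in Cxcl1 and Cxcl2 are the same letters. In each of these 2 genes a plus-strand and a minus-strand match to the NF-kB consensus overlap, from 71 to 61 bases before the start in Cxcl1 and from 97 to 87 in Cxcl2. Cxcl10 held NF-kB matches from 159 to 150 and from 104 to 94 bases before the start, the latter made of overlapping matches, and an interferon regulatory factor match from 213 to 205. The Cxcl9 window held an interferon regulatory factor match from 175 to 167 bases before the start. Of 32851 promoter windows of the same length, 7.25% held an NF-kB match, 7.13% an interferon regulatory factor match and 7.02% a match to the gamma-activated sequence TTCNNNGAA, which none of the 7 members held. Ccl6, Cxcl12 and Cxcl13 held none of the 3 motifs. A match of letters is a description and not a measured binding site.

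Values are deposited normalised counts, that is, reads divided by a size factor of the library. Recovered depth was 19.9 to 30.5 M reads per library, and averaged 22.02 ± 1.10 M for CT livers, 22.8 ± 2.90 M for C26 livers and 25.8 ± 3.50 M for C26-CHO livers (± SD, n = 8). The first principal component held 71.9% of the variance. CT livers scored from -83.2 to -75.4 on it and C26 livers from 28.8 to 54.6, while the lowest C26-CHO liver, number 1, lay between these groups at -13.41. Albumin (Alb), the defining hepatocyte transcript, was at 1034280 ± 78170 in CT, 250837 ± 47463 in C26 and 292877 ± 56986 in C26-CHO (mean ± SD, n = 8).

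In C26 livers both neutrophil attractants and both monocyte attractants were higher than in CT, and 4 of 6 lymphocyte attractants were lower, although the call of one of these, Cxcl12, was lost under quantile normalization. Of the 10 chemokines 9 passed an adjusted p of 0.05 (limma) in C26 vs CT, 5 higher and 4 lower, where 66.3% of all tested genes passed, 33.3% higher and 32.9% lower. Genes were tested if their values averaged 10 or more over all livers. Cxcl2 and Ccl2 averaged below 10 in CT and Ccl5 in C26, so their calls were partly set by this filter. The groups did not overlap for 6 of 10 chemokines, against 35.0% of tested genes. The median log2 change was 1.19 over the 10 genes and 0.0056 over all tested genes. With so large a share of genes passing, the sizes and directions say more about these genes than the count.

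Cxcl1 was measured at 269.8, 396.5 and 569.8 (lowest, median and highest) in CT livers. The corresponding values were 5507, 6790 and 7328 in C26 and 4226, 6057 and 6887 in C26-CHO. Every tumour-bearing liver was above every CT liver. The mean rose from 407 ± 102 to 6730 ± 583 (SD, n = 8), a log2 change of 4.08 ± 0.12 (SE, adjusted p = 1.12e-19) or 16.9-fold (95% interval 14.2 to 20.1). In C26-CHO vs CT the log2 change was 3.89 (adjusted p = 3.31e-19).

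Cxcl2, the second neutrophil attractant, was close to the limit of detection in CT, with 21 reads over 8 livers and none in 1 of them. Its values were 0, 1.81 and 5.84 in CT, 26.2, 66.2 and 200.6 in C26, and 3.13, 32.8 and 53.2 in C26-CHO (lowest, median and highest). CT and C26 livers did not overlap, while the lowest C26-CHO liver, number 1, fell inside the CT range. The log2 change was 4.46 ± 0.52 in C26 vs CT (SE, adjusted p = 3.76e-08) and 2.91 in C26-CHO vs CT (adjusted p = 2.98e-05). These are changes of log2(value + 1), which understate the change of a gene this low in CT. Cxcl2 and Ccl2 passed the filter on low values only through the tumour-bearing groups.

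Ccl2, the main monocyte attractant, was at 2.59, 3.65 and 14.1 in CT, 5.46, 34.3 and 79.4 in C26 and 3.49, 13.6 and 54.4 in C26-CHO (lowest, median and highest). Groups overlapped, although 7 of 8 C26 livers were above every CT liver. The log2 change in C26 vs CT was 2.35 ± 0.49 (SE, adjusted p = 0.000145). For C26-CHO vs CT it was 1.59 (adjusted p = 0.00641), a call that was lost under quantile normalization (1.17, adjusted p = 0.0537).

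Ccl6 ranged from 52.6 to 100.3 in CT (median 78.1), from 624.5 to 1307 in C26 (median 747) and from 361.6 to 954 in C26-CHO (median 629). No tumour-bearing liver came near the CT range. The log2 change was 3.31 ± 0.18 in C26 vs CT (SE, adjusted p = 2.01e-14) and 3.02 in C26-CHO vs CT (adjusted p = 1.59e-13).

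Among lymphocyte attractants Cxcl9 fell furthest. Its lowest, median and highest values were 66.05, 329 and 704 in CT, 11.6, 23.4 and 31.6 in C26 and 6.06, 34.1 and 343 in C26-CHO. All C26 livers lay below all CT livers, and 6 of 8 C26-CHO livers did. The log2 change was -3.73 ± 0.57 in C26 vs CT (SE, adjusted p = 2.72e-06), so that CT was 13.3-fold higher (95% interval 5.87 to 30.0). In C26-CHO vs CT it was -2.91 (adjusted p = 8.84e-05), and -3.36 without C26-CHO liver 5.

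Cxcl10, which shares the receptor Cxcr3 with Cxcl9, was at 23.9, 66.5 and 100.3 in CT, 8.73, 24.5 and 45.4 in C26 and 14.3, 23.4 and 77.5 in C26-CHO. The groups overlapped, through CT liver 6 among others. The log2 change was -1.32 ± 0.34 in C26 vs CT (SE, adjusted p = 0.00141) and -1.10 in C26-CHO vs CT (adjusted p = 0.00673). Its fall was smaller than that of Cxcl9 in size, but the difference between the 2 genes was not tested.

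Ccl5 was low throughout, with 152 reads over the CT group, 34 over C26 and 108 over C26-CHO. Its values were 5.74, 13.1 and 38.0 in CT, 1.15, 3.92 and 9.82 in C26 and 1.16, 8.44 and 45.2 in C26-CHO (lowest, median and highest). The log2 change was -1.60 ± 0.50 in C26 vs CT (SE, adjusted p = 0.00627) with overlapping groups. Its mean was 4.79 in C26, and it passed the filter on low values only through CT (17.1) and C26-CHO (12.2). The call of Ccl5 as lower in C26 was therefore partly set by the filter. In C26-CHO vs CT it was -0.86 (adjusted p = 0.134), and it passed without C26-CHO liver 5 (-1.21, adjusted p = 0.0230).

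Cxcl16 did not differ beyond the spread between livers in any comparison, with means of 149 ± 27.1 in CT, 150 ± 21.9 in C26 and 143 ± 29.3 in C26-CHO (SD, n = 8). The lowest and highest livers were at 107 and 194 in CT, 128 and 190 in C26 and 100.5 and 184 in C26-CHO. In C26 vs CT the log2 change was 0.023, with a 95% interval from -0.24 to 0.28 (adjusted p = 0.882).

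Cxcl12, the constitutive chemokine, was in CT at 5464, 6190 and 6799 (lowest, median and highest). It was at 4278, 4876 and 5257 in C26 and at 4435, 5553 and 8334 in C26-CHO. CT and C26 livers did not overlap, yet the change was small, at -0.35 ± 0.08 on the log2 scale (SE, adjusted p = 0.000697). Under quantile normalization it was -0.094 (adjusted p = 0.316), so this call depends on the scaling. C26-CHO vs CT gave -0.12 (adjusted p = 0.240), and -0.19 (adjusted p = 0.0117) without C26-CHO liver 1, the highest of its group.

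Cxcl13, the B cell attractant, went against the other lymphocyte attractants that changed. It was at 7.76, 16.3 and 23.96 in CT, 135.8, 203 and 597 in C26 and 36.8, 115 and 276 in C26-CHO. No CT liver reached the tumour-bearing ranges. The log2 change was 3.85 ± 0.37 in C26 vs CT (SE, adjusted p = 1.13e-09) and 2.90 in C26-CHO vs CT (adjusted p = 1.99e-07).

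**Figure D1:**
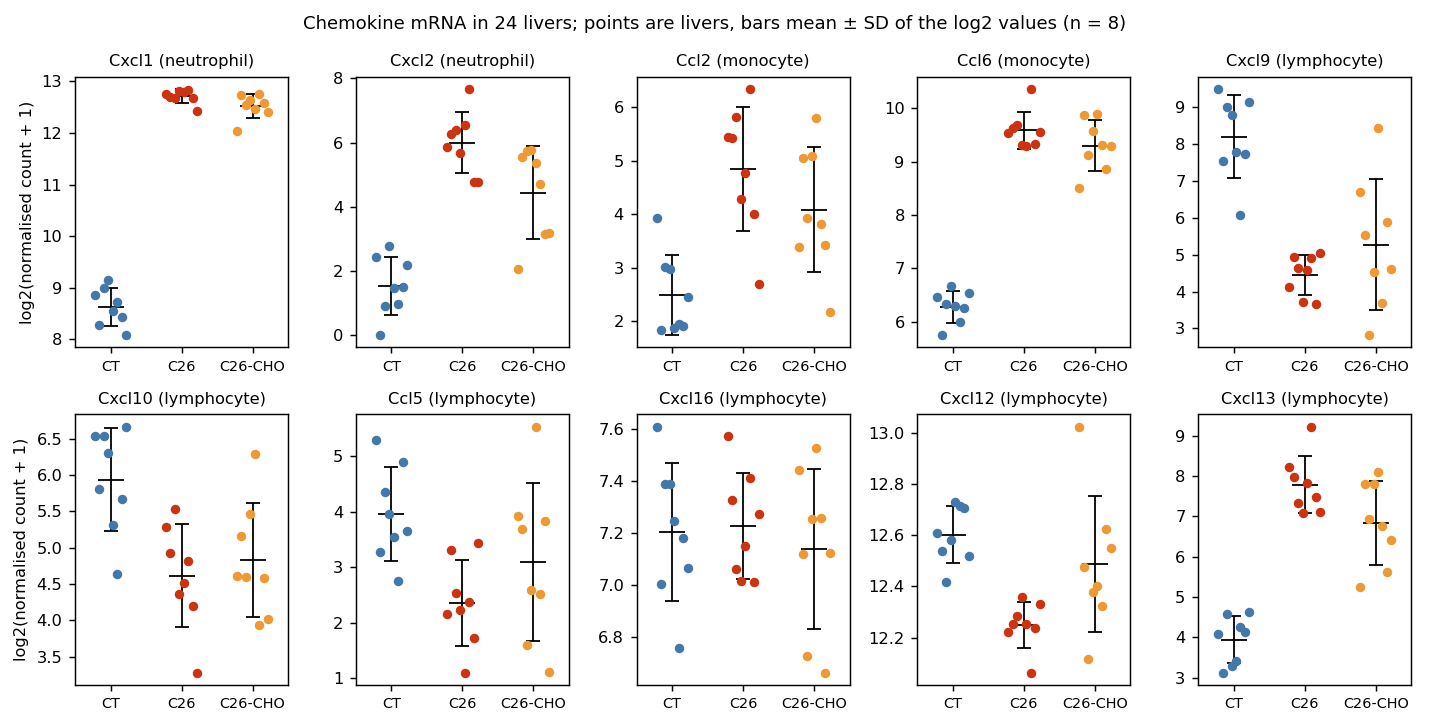
Each panel plots log2(normalised count + 1) of a chemokine for the 24 livers by group; points are livers and bars are the mean ± SD of the log2 values (n = 8). Cxcl1, Cxcl2, Ccl6 and Cxcl13 of C26 livers sit above every CT liver, Cxcl9 and Cxcl12 sit below, and Cxcl16 overlaps throughout.

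In C26-CHO vs CT 7 of 10 chemokines passed, 5 higher and 2 lower, where 62.2% of tested genes passed, 31.3% higher and 30.9% lower. The groups did not overlap for 3 of the 10, Cxcl1, Ccl6 and Cxcl13, against 25.2% of tested genes. The 3 that did not pass were Ccl5, Cxcl16 and Cxcl12. C26 vs CT and C26-CHO vs CT share the CT livers, so the values of the 2 comparisons are not independent.

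Cholestyramine was set against the untreated tumour in C26-CHO vs C26, where none of the 10 chemokines passed. Of all tested genes 0.705% passed (0.556% higher and 0.150% lower), and groups did not overlap for 0.135%. The count of chemokines remained 0 with edgeR and with DESeq2 on the recovered reads. At an unadjusted p under 0.05 there were 3 of 10 members and 1832 of 14040 tested genes. Cxcl2 was the largest of these, at -1.55 (95% interval -2.63 to -0.48, adjusted p = 0.164). All 8 C26-CHO livers were below the C26 mean of Cxcl2, 76.6, but C26 liver 6 at 200.6 raised that mean above the C26 median of 66.2. The groups overlapped, from 26.2 to 200.6 in C26 and from 3.13 to 53.2 in C26-CHO, and 4 of 8 C26-CHO livers were below every C26 liver. Cxcl13 was at -0.95 (-1.71 to -0.19, adjusted p = 0.246) and Cxcl12 at 0.24 (0.063 to 0.41, adjusted p = 0.192). Without C26-CHO liver 1, Cxcl2, Cxcl13 and Cxcl12 were at -1.21, -0.72 and 0.16. For each of these genes this was the smallest change in size when single libraries were left out.

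For Cxcl1 the log2 difference between C26-CHO and C26 was -0.19, with an interval from -0.44 to 0.059 (adjusted p = 0.543). Cxcl9 was at 0.82 (interval -0.36 to 1.99, adjusted p = 0.590) and at 0.37 without C26-CHO liver 5. Ccl5 was at 0.74 (-0.28 to 1.76) and at 0.39 without that liver. Ccl2, Ccl6, Cxcl10 and Cxcl16 were at -0.76, -0.28, 0.22 and -0.089, with adjusted p from 0.530 to 0.858. These intervals leave room for changes of either sign in most members and do not show that the resin had no effect.

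**Figure D2:**
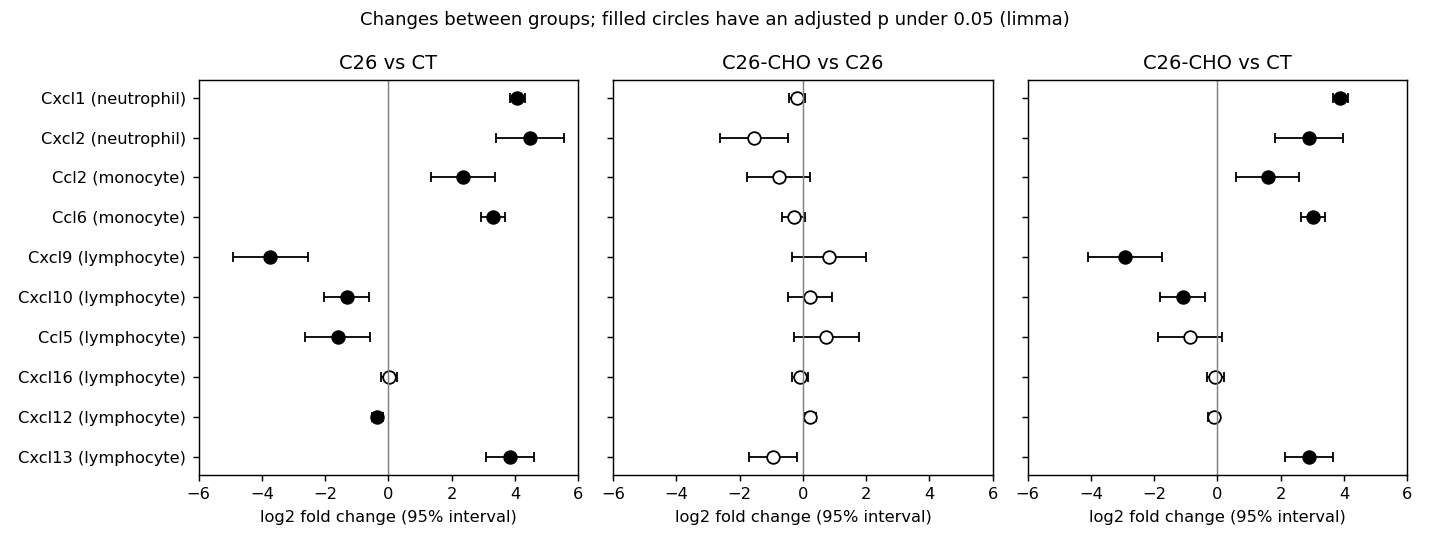
Log2 fold change with its 95% interval for each chemokine (rows, with the cell class it attracts) in the 3 comparisons; filled circles have an adjusted p under 0.05. Filled circles number 9 in C26 vs CT, 0 in C26-CHO vs C26 and 7 in C26-CHO vs CT.

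Levels were compared between genes as normalised counts per kb of exon, taken as all bases in any annotated exon of the gene. For Cxcl1, Cxcl2 and Cxcl10 this length was the whole gene span (1875, 2068 and 2252 bases), and for Cxcl12 it was 8176 bases. The order of genes, their shares and the ratios between genes depend on these lengths, and other lengths were not tried. In CT livers Cxcl12 led with 762 ± 58.1 per kb (SD, n = 8), and Cxcl1 followed with 217 ± 54.6. Next was Cxcl9 at 119 ± 73.5, and below it were Cxcl16, Ccl6, Cxcl10, Ccl5, Cxcl13, Ccl2 and Cxcl2, from 49.3 down to 1.16 per kb. Only Cxcl12 and Cxcl1 were neighbours in this order whose ranges over livers did not overlap.

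With the tumour Cxcl1 took the first place, at 3589 ± 311 per kb in C26, above Cxcl12 at 597 ± 36.0, Ccl6 at 440 ± 124 and Cxcl13 at 216 ± 132. Cxcl10, Cxcl9 and Ccl5 held the last 3 places, at 11.5, 7.35 and 4.99 per kb. Ranges of neighbours did not overlap between Cxcl1 and Cxcl12 or between Cxcl13 and Cxcl16. In C26-CHO the first 5 places were the same, with Cxcl1 at 3166 ± 455 per kb, and the ranges parted between Cxcl1 and Cxcl12 and between Cxcl12 and Ccl6.

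Summed per kb, the 10 chemokines came to 1258 ± 122 in CT, 4984 ± 485 in C26 and 4501 ± 491 in C26-CHO. Cxcl1 made up 17.1% ± 3.40, 72.1% ± 3.23 and 70.2% ± 5.18 of these sums, and Cxcl12 made up 61.1%, 12.1% and 16.2%. The neutrophil attractants together were at 0.220 ± 0.0534 of the lymphocyte attractants in CT, 4.12 ± 0.416 in C26 and 3.54 ± 0.927 in C26-CHO. The lymphocyte sum itself, most of which is Cxcl12, was at 992 ± 84.3, 886 ± 106 and 934 ± 165 per kb. Without Cxcl12 it was 229 ± 102, 290 ± 138 and 221 ± 127 per kb, a sum into which the lower Cxcl9 and the higher Cxcl13 both enter. The ratio of neutrophil to lymphocyte attractants without Cxcl12 was 1.14 ± 0.616 in CT, 14.2 ± 4.53 in C26 and 17.5 ± 6.97 in C26-CHO. The order of C26 and C26-CHO in this ratio therefore depended on whether Cxcl12 was included, and the difference between them was not tested.

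**Figure D3:**
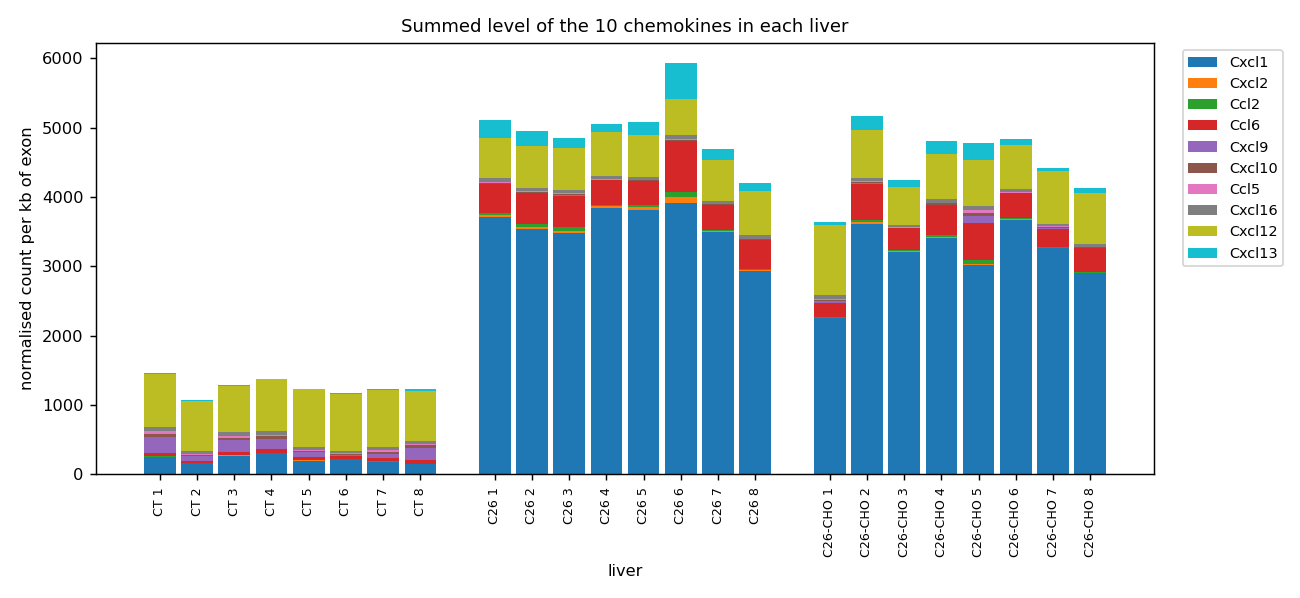
Stacked bars give the level of each chemokine in normalised counts per kb of exon for each of the 24 livers. Cxcl12 fills most of each CT bar, and Cxcl1 fills most of each tumour-bearing bar.

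The ratio of Cxcl1 to Cxcl9, both per kb, set the most abundant neutrophil attractant against the lymphocyte attractant that fell furthest. It was 0.781, 2.37 and 10.3 in CT livers, 280, 469 and 948 in C26 livers and 26.5, 310 and 1593 in C26-CHO livers (lowest, median and highest). No tumour-bearing liver had a ratio within the CT range. The lowest ratio among C26-CHO livers belonged to liver 5, which had Cxcl1 at 5661 and Cxcl9 at 343. Other ratios moved less: that of Cxcl1 to Cxcl10 had medians of 7.50 in CT, 359 in C26 and 272 in C26-CHO. That of Cxcl1 to Cxcl12 had medians of 0.256, 5.95 and 4.88 in the same order. No test is given, because these ratios are built from members already tested one by one.

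**Figure D4:**
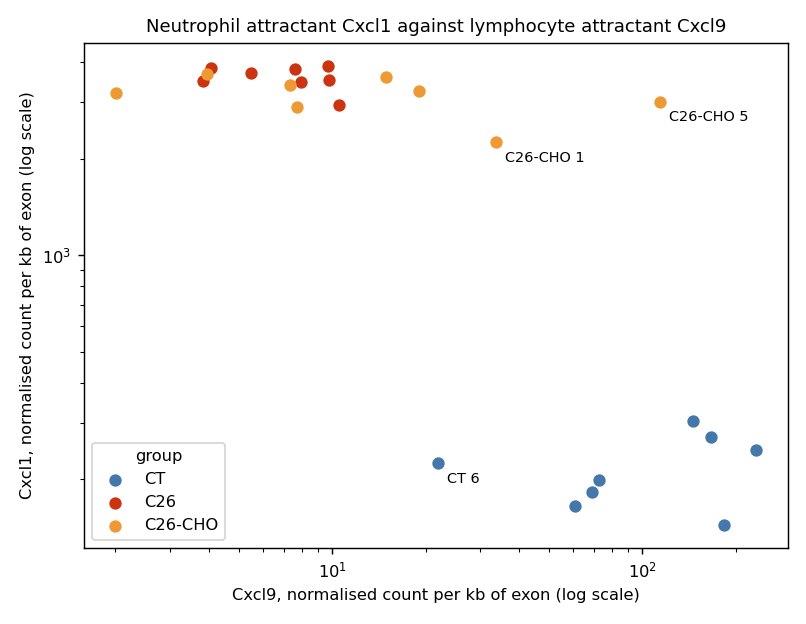
Cxcl1 (vertical) against Cxcl9 (horizontal), both in normalised counts per kb of exon on log axes, for 24 livers coloured by group. CT livers sit low and mostly to the right, tumour-bearing livers sit high, and C26-CHO livers 1 and 5 lie to the right of the other tumour-bearing livers.

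Further genes of the pathway are given by list, where a list's count is a description of the genes that passed the filter on a mean value of 10. A gene below 10 in one group passed only through the groups where it is high, so its call was partly set by the filter. Of 28 further chemokine ligands listed, 10 were tested in C26 vs CT, 4 higher and 2 lower, where 66.3% of all tested genes passed (33.3% higher, 32.9% lower). The platelet chemokines among the 4 were below 10 in CT. Cxcl14, an epithelial chemokine, rose from 19.2 ± 10.2 to 1995 ± 321 (SD, n = 8), a log2 change of 6.78 (adjusted p = 1.15e-17). The platelet chemokines Ppbp and Pf4 rose by 2.21 and 0.86, and Ccl27a fell by 1.01.

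Of 23 chemokine receptors listed, 12 were tested, 6 higher and 2 lower, a share called near that of all tested genes. Cxcr2 and Ccr1, among the 6, were below 10 in CT. Cxcr2, the receptor of Cxcl1 and Cxcl2, was at 2.23 ± 1.33 in CT and 30.5 ± 16.6 in C26, a log2 change of 3.28 (adjusted p = 1.19e-09). Ccr1 and Ccr2 rose by 3.81 and 1.83. The receptors of the lymphocyte attractants Cxcl9, Cxcl10 and Cxcl13 were too low to be tested and are named after their values were seen: Cxcr3 was at 7.76 ± 1.79 in CT and 3.35 ± 2.42 in C26, and Cxcr5 was at 13.7 ± 2.36 and 5.66 ± 3.06.

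Of 8 proteases that cut or shed chemokines, 6 were higher and 1 was lower, and 3 of the 6 were below 10 in CT. Of all tested genes 33.3% were higher and 32.9% lower. Dpp4, which trims the start of several chemokines including Cxcl9, Cxcl10 and Cxcl12, fell from 3202 ± 157 to 1619 ± 128, a log2 change of -0.99 (adjusted p = 2.37e-13). Mmp8, the neutrophil collagenase, rose by 5.52, Mmp14 by 2.43 and Adam17, a sheddase, by 0.43.

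Among genes of NF-kB, IL-1 and TNF signalling, which in other settings induce Cxcl1 and Cxcl2, 16 of 18 tested were higher and 1 was lower in C26 vs CT (median 1.62). Il17ra, Il1r1, Myd88 and Tnfrsf1a rose by 2.78, 3.23, 1.88 and 1.85 on the log2 scale. Interferon gamma response genes were divided, with 6 of 18 tested higher and 8 lower (median -0.21). For both lists the share over all tested genes was 33.3% higher and 32.9% lower. Socs1, a feedback inhibitor of this pathway, rose by 5.24, while the GTPase gene Igtp fell by 1.54. Ifngr1, a receptor chain, rose by 0.52. Ifng itself, named outside the rule for named genes, had 7 reads over the CT livers, 2 over C26 and 3 over C26-CHO. None of the genes tested in these 5 lists passed in C26-CHO vs C26.

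Markers of leukocytes moved with the chemokines, and in bulk liver a change in the number of cells of a type and a change in RNA per cell cannot be told apart. Beside the counts of each marker list, 33.3% of all tested genes were higher and 32.9% lower in C26 vs CT. Over all 12 neutrophil markers the summed list was at 40.8 to 81.0 in CT, 298 to 1099 in C26 and 198 to 556 in C26-CHO. Of the 12 genes 5 were tested and 5 were higher in C26 vs CT, but 4 of these were below 10 in CT. This list includes Cxcr2 and Mmp8, and its first gene, Ly6g, had 3 reads over the CT group and 20 over C26. The 6 monocyte markers had sums of 114 to 183, 432 to 1294 and 347 to 975.1 in the same order, and 5 were tested and higher, 2 of them below 10 in CT. The first gene of the list, Ly6c2, was below the filter at 8.23 ± 4.04 in CT and 9.32 ± 3.98 in C26. Of this list only Chil3 passed in C26-CHO vs C26 (-2.02, adjusted p = 0.0363).

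Sums of the 14 T and NK cell markers were 73.7 to 252 in CT, 32.1 to 88.4 in C26 and 42.4 to 151 in C26-CHO. Of these genes 3 were tested and 3 were lower in C26 vs CT, 2 of them below 10 in C26. Cd3e, a chain of the T cell receptor complex, was too low to be tested, at 7.45 ± 2.41 in CT and 2.19 ± 1.09 in C26. Of 7 B cell markers 5 were tested, 4 lower (2 of them below 10 in C26) and Blk higher (below 10 in CT), with sums of 60.3 to 186, 35.6 to 72.2 and 31.3 to 161.

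All 8 Kupffer cell markers rose, with sums of 4212 to 6145 in CT and 7438 to 9756 in C26, and Clec4f went from 1906 ± 255 to 2500 ± 245. Of 7 sinusoidal endothelial markers 5 rose and 1 fell, and of 6 stellate cell markers 2 rose and 2 fell. In C26 vs CT 66.3% of all tested genes passed, 33.3% higher and 32.9% lower, and the stellate count is near that share. Stab2 was at 1062 ± 267 in CT and 1577 ± 419 in C26, and Lrat at 296 ± 81.1 and 292 ± 43.3. Of 5 cholangiocyte markers 2 rose and none fell, with sums of 311 to 473 in CT, 5471 to 11392 in C26 and 2164 to 9449 in C26-CHO. Those that rose, named after their values were seen, were Spp1 by 4.49 and Sox9 by 3.96, while Krt19 did not pass (-0.56, adjusted p = 0.0674). Of 3 erythroid markers tested 2 rose, Hba-a1 among them (0.51, adjusted p = 0.0413), and 1 fell. Of 6 hepatocyte markers 1 rose and 4 fell, and Alb fell by 2.06 (adjusted p = 1.94e-13). No gene of a marker list was at 0 in a whole group. The part of these cell types in the chemokine values was not tested.

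Some of the chemokines varied together from liver to liver within groups. Deviations of log2 values from the group mean were correlated over the 24 livers for all 45 pairs, with 100000 permutations within groups and Benjamini-Hochberg adjustment over the 45 pairs. By Pearson's r 14 pairs passed, 12 positive and 2 negative, and 13 of these also passed by Spearman's rho. Ccl2 and Cxcl10 had the highest r, 0.83 (p = 1e-05, the smallest these permutations can give, adjusted p = 0.00045, rho = 0.80), and 0.75 without the 2 livers farthest from the median of Ccl2. Within CT, C26 and C26-CHO it was 0.70, 0.90 and 0.88 (n = 8 each).

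Cxcl2 went with Ccl6 (r = 0.79, rho = 0.75, adjusted p = 0.0012), with Ccl2 (r = 0.74, rho = 0.80, adjusted p = 0.00234) and with Cxcl13 (r = 0.71, rho = 0.65, adjusted p = 0.00495), by permutation. Without the livers farthest from the median of Cxcl2, C26-CHO 1 and CT 2, these values of r were 0.69, 0.77 and 0.60. Cxcl9 went with Ccl5 (r = 0.79, rho = 0.75, permutation adjusted p = 0.000675), and r was 0.65 without C26-CHO livers 5 and 3. Cxcl9 and Cxcl10 had r = 0.60 (rho = 0.53, permutation adjusted p = 0.0144), made of 0.96 in CT, -0.027 in C26 and 0.65 in C26-CHO, so the relation was not seen within C26. Cxcl1 and Cxcl9 had r = -0.12 (rho = -0.069, permutation adjusted p = 0.687).

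Cxcl12 was the member with negative pairs, with Cxcl2 (r = -0.64, rho = -0.57, permutation adjusted p = 0.0143) and with Cxcl13 (r = -0.63, rho = -0.59, permutation adjusted p = 0.0153). The pair with Cxcl2 was at 0.097 in CT, -0.68 in C26 and -0.86 in C26-CHO. Cxcl1 passed with Cxcl2 (r = 0.49, permutation adjusted p = 0.0453), where Spearman's rho of 0.45 did not (adjusted p = 0.0680). It also passed with Ccl2 by both measures, by r just under the threshold (r = 0.445, permutation adjusted p = 0.0494, and rho = 0.505, permutation adjusted p = 0.0337). Values of r and of p do not run in the same order over pairs, because livers were permuted within groups and genes differ in which group holds their spread. Of the squared deviations of Cxcl1 66.4% lay in CT, against 21.8% for Cxcl2, and 77.7% of those of Cxcl12 lay in C26-CHO. The points of a pair share a library and its size factor.

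**Figure D5:**
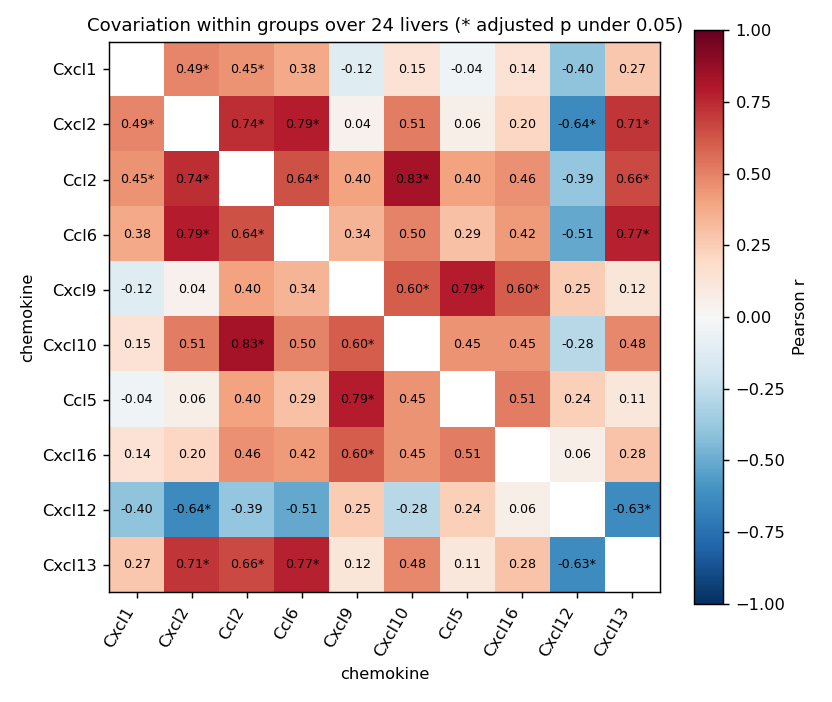
Pearson r of within-group deviations over 24 livers for each pair of chemokines; an asterisk marks an adjusted permutation p under 0.05. All pairs among Cxcl2, Ccl2, Ccl6 and Cxcl13 carry an asterisk, as do Cxcl1 with Cxcl2 and Ccl2, Ccl2 with Cxcl10, and Cxcl9 with Cxcl10, Ccl5 and Cxcl16. The negative cells with an asterisk belong to Cxcl12.

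Of 12482 tested genes with a standard symbol, the 2 nearest to each chemokine by this r are given as a description over 24 livers. Cxcl1 was nearest to Apcs, which encodes the acute-phase protein serum amyloid P (r = 0.79), and to Srrm4 (0.74). Cxcl2 was nearest to Serpina3i (0.88) and to Tnfaip3, an NF-kB-induced inhibitor of NF-kB (0.84). Ccl2 was nearest to the inflammasome gene Nlrp3 (0.84) and to Cxcl10 (0.83), and Cxcl10 to Ccl2 and Apobec1 (both 0.83). Ccl6 was nearest to Cd300lf (0.88) and Sla (0.86), and Cxcl13 to the receptor gene Tlr2 (0.90) and Slfn4 (0.86).

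Cxcl9 was nearest to H2-Ea-ps (0.92) and to Cd74, the invariant chain (0.90), Ccl5 to Il16 (0.84) and H2-Aa (0.83), and Cxcl16 to Fcer1g (0.84) and H2-DMb2 (0.83). Cxcl12 was nearest to Eno1b and Prpf19 (both 0.85), of which Prpf19 had a Spearman's rho of 0.59.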

How the data were processed

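Liver RNA of 24 mice in 3 groups of 8 was sequenced. Per the submitters' processing notes, reads passed through bcl2fastq 2.17, FastQC, Trimmomatic 0.38, STAR 2.6.1d on GRCm38 and DESeq2 1.22.2. How reads were counted, against which annotation and whether by strand is not stated in those notes or the labels. The authors deposited a normalised signal, the read count of a gene divided by a size factor of the library. Whole reads were recovered for 100% of values within 0.001 of a read; in C26-CHO livers 3 and 4 a read is worth 1.01 and 1.004, so close to 1 that recovery there was not accepted by a separate check of the units. No column was left unused, 433 of 22392 identifiers had no symbol, and nothing in the labels says whether the mice shared a cage or a day.

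The 14040 genes whose values averaged 10 or more entered limma 3.58.1 (R 4.3.3, eBayes with trend) on log2(value + 1), with all 24 libraries in 1 fit and Benjamini-Hochberg adjustment within each comparison. The fit was checked on simulated data. Alternatives were a pseudocount of 0.5, no filter, quantile normalization, only the groups compared, the replicate number as a block, edgeR 4.0.16 and DESeq2 1.42.0 on recovered reads, and leaving out each library. Levels between genes were divided by exon length from GENCODE M21. Correlations used Python 3.11.15 with numpy 2.4.6 and permuted livers within groups only. Within groups the libraries differed by more than counting error, with chi-square per degree of freedom from 6.97 to 193.6 over pairs.

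The 10 chemokines and the gene lists were chosen with earlier results of these data known, so their calls are no independent support for earlier ones. The rule for named genes took the 10 chemokines, up to 4 called genes with the smallest p of each of 5 pathway lists (other ligands, receptors, cleavage and shedding, NF-kB with IL-1 and TNF, interferon gamma response), the first gene of each marker list and any at 0 in a whole group, and the 2 genes nearest to each chemokine. The marker lists covered neutrophils, T and NK cells, B cells, monocytes, Kupffer cells, sinusoidal endothelium, stellate cells, cholangiocytes, erythroid cells and hepatocytes. Exceptions are marked in the text, and a few genes the rule takes are not reported here.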

Additional observations from a re-analysis of the deposited data

Results flagged for a closer look

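A liver was set apart when its gap to the nearest of its group exceeded 0.526 of the group's range, and 8 of 30 groups of values held such a liver. Gaps were taken on normalised counts and not on log2 values, where a high liver stands out less. How many groups would be flagged by chance on this scale was not tested, so the 8 are a description and not an excess. C26-CHO liver 5 stood highest of its group for 3 lymphocyte attractants, with Cxcl9 at 343 (next 101.7), Cxcl10 at 77.5 (next 43.2) and Ccl5 at 45.2 (next 14.1). The same liver had the highest summed neutrophil (556), monocyte (975.1), Kupffer cell (12535) and T and NK cell markers (151) of its group, the last close to the 146 of C26-CHO liver 1. C26 liver 6 stood highest for Cxcl2 at 200.6 (next 93.0), Ccl6 at 1307 (next 819) and Cxcl13 at 597 (next 299), and its summed neutrophil and monocyte markers, at 1099 and 1294, were the highest of C26. C26 liver 8 was lowest for Cxcl1 at 5507 (next 6514). CT liver 1 was highest for Ccl2 at 14.1 (next 7.05).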

How the results depend on the processing

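Over the alternatives, 304 of 310 values of the 10 chemokines kept their direction and their side of the threshold in C26 vs CT, 310 of 310 in C26-CHO vs C26 and 305 of 310 in C26-CHO vs CT. The changes concerned Cxcl16, Cxcl12, Ccl2 and Ccl5. Cxcl16, never called, turned to -0.059 under quantile normalization in C26 vs CT and ran from -0.041 to 0.081 when single libraries were left out, and from -0.13 to 0.0017 in C26-CHO vs CT. Cxcl12 turned to 0.086 in C26-CHO vs CT under quantile normalization, and the cause was not tested. The number of genes called in C26-CHO vs C26 was 99, and it was 10 with only the groups compared, 326 with DESeq2, and 23 to 273 when single libraries were left out (23 without C26-CHO liver 7, 273 without C26-CHO liver 3). Same-numbered livers had correlations of their deviations from -0.20 to 0.25, with 9 of 24 over 0.1. Livers with different numbers were not compared, so these values do not decide whether the numbers pair the samples. The main fit treated the samples as unpaired. With the replicate block 9643, 97 and 9079 genes and 9, 0 and 7 chemokines were called. Depth limits Cxcl2, Ccl2 and Ccl5, which had from 21 to 48 reads over the lowest group of each.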
